A study of Drosophila melanogaster with 4 samples.

Results

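The genes described here encode Gug and 8 other parts of the Drosophila co-repressor machinery (HDAC1, G9a, gro, CtBP, Sin3A, Smr, CoRest and ebi). They were chosen by symbol in the Ensembl annotation, and are 9 of 13968 protein-coding genes. Chromatin immunoprecipitation followed by sequencing had been carried out on whole Drosophila melanogaster embryos aged 0 to 24 h. The strain, Gug-GFP, carried an insertion that targets Gug and expressed a Gug-eGFP fusion, which was precipitated with an anti-GFP antibody. All 4 samples are biological replicates of this 1 group, each with technical replicate 1, from chromatin sheared by sonication, with no sex recorded and no control sample used here. The labels do not say whether the insertion adds a copy of Gug or alters the resident one, and whole embryos mix all tissues and stages, so a peak cannot be given to a cell type.

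Co-repressors do not bind DNA themselves. They are brought to genes by DNA-binding repressors and in turn bring enzymes that remove histone acetyl groups or add methyl groups, which lowers transcription nearby. Gug, also called Grunge or Atrophin, is the fly member of the Atrophin family. It is known as a partner of Tailless and other nuclear receptors and of Even-skipped in the embryo, and as a carrier of the deacetylase HDAC1 (Rpd3) and the methyltransferase G9a. The question asked of the peak lists was whether Gug-eGFP lies on the genes of this machinery.

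Gug-eGFP peaks lay at most of these genes. Peaks of the 4 lists whose summits lay within 200 bp of each other were joined into regions, and a region that 2 or more lists share is called reproducible here. A reproducible region lay in the gene or within 10 kb of it for 7 of the 9 genes (77.8%), all except G9a and CoRest. Over all protein-coding genes this share was 49.4%. Within 1 kb of an annotated transcription start site (TSS) a reproducible region lay at 5 of the 9 (55.6%), namely Gug, gro, CtBP, Sin3A and ebi, against 15.9% of all protein-coding genes. A region found in all 4 lists lay within 1 kb of a TSS of 4 of them (44.4%; Gug, gro, Sin3A and ebi), against 7.84%. These counts were not tested, because the genes were chosen with earlier results of these data known.

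These genes are also longer than most, and a longer gene has a wider window. Their median span was 8.97 kb, against 2.16 kb for all protein-coding genes. Among the 5497 protein-coding genes with spans between the shortest and the longest of the 9 (2.73 to 58.4 kb), 57.0% had a reproducible region within 10 kb and 22.4% within 1 kb of a TSS. Among the 3699 genes with at least 2 TSSs the shares were 60.9% and 26.8%. Both shares were below those of the 9 genes. A reproducible region in the gene itself was found in 5 of the 9 (Gug, gro, CtBP, Sin3A and Smr) and in 7.94% of all protein-coding genes. The same 5 had a region in the window whose nearest TSS was their own, which 14.6% of all protein-coding genes had. Neither of these shares was taken among genes of like span, and a longer gene has more room for a region inside it.

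The shares were of similar order in each replicate taken alone. Within 1 kb of a TSS, peaks lay at 4, 7, 5 and 5 of the 9 genes in replicates 1 to 4 (58.3% ± 13.98, SD, n = 4). The shares of all protein-coding genes in the same lists were 10.3%, 22.5%, 13.8% and 13.0% (14.9% ± 5.30, SD, n = 4). With the 10 kb window the genes numbered 6, 9, 7 and 7 (80.6% ± 13.98), against 46.4% ± 9.21 of all protein-coding genes (SD, n = 4). In every list the 9 genes stood above all genes, and replicate 2, with the longest list, held the most of them. That list had 3786 peaks on the chromosome arms, where replicates 1, 3 and 4 had 1948, 2117 and 2450.

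**Figure D1:**
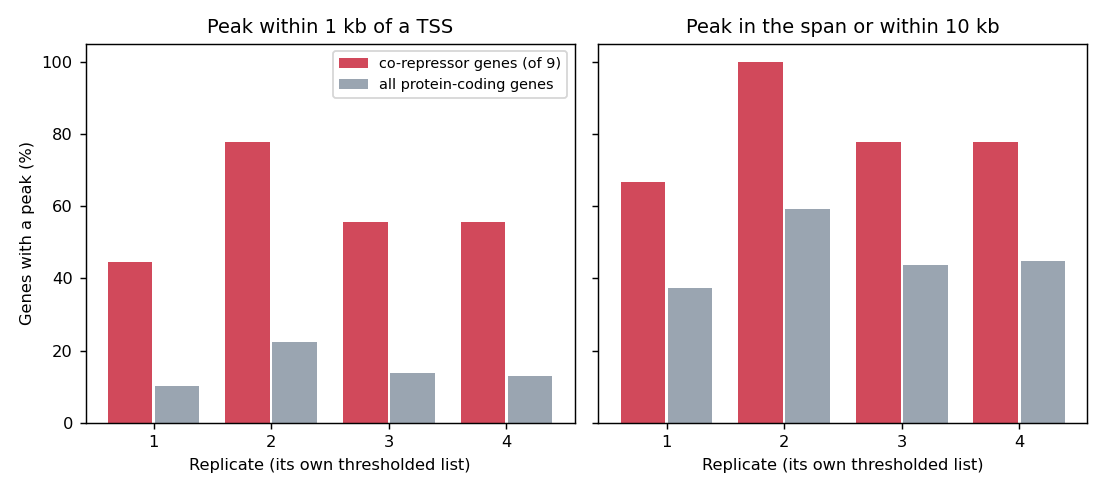
Percentage of the 9 co-repressor genes (red) and of all protein-coding genes (grey) with a peak, by replicate, within 1 kb of a TSS (left) and in the gene or within 10 kb (right). The red bars stand above the grey in all 4 lists, from 44.4% against 10.3% in replicate 1 to 77.8% against 22.5% in replicate 2 on the left.

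The 9 windows together held 89 peaks of the 4 lists, which joined into 28 regions. Of these, 13 were found in all 4 lists, 5 in 3 lists, 1 in 2 lists and 9 in 1 list. Of the 9 regions in 1 list, 5 were in replicate 2, 1 in replicate 3 and 3 in replicate 4. The 19 reproducible regions comprised 12 in introns and 7 between genes. Over all 2643 reproducible regions, 44.6% lay in introns, 44.6% between genes and 9.16% in 5' UTRs. Replicates 1 to 4 held 14, 19, 17 and 19 of the 19.

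Strength is given as a percentile, the share of peaks in the same replicate's list with a signal score no higher than that of the peak, so the top peak of a list is at 100. The median of the mean percentiles over the 19 regions was 62.0, against 50.4 over all reproducible regions. Of the 19, 68.4% were in all 4 lists, against 44.3% of all reproducible regions. The mean percentile was at least 90 for 4 of them and under 50 for 8. The 4 strong ones were 2 regions upstream of Smr, 1 intronic region of Gug and 1 intronic region of gro.

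**Figure D2:**
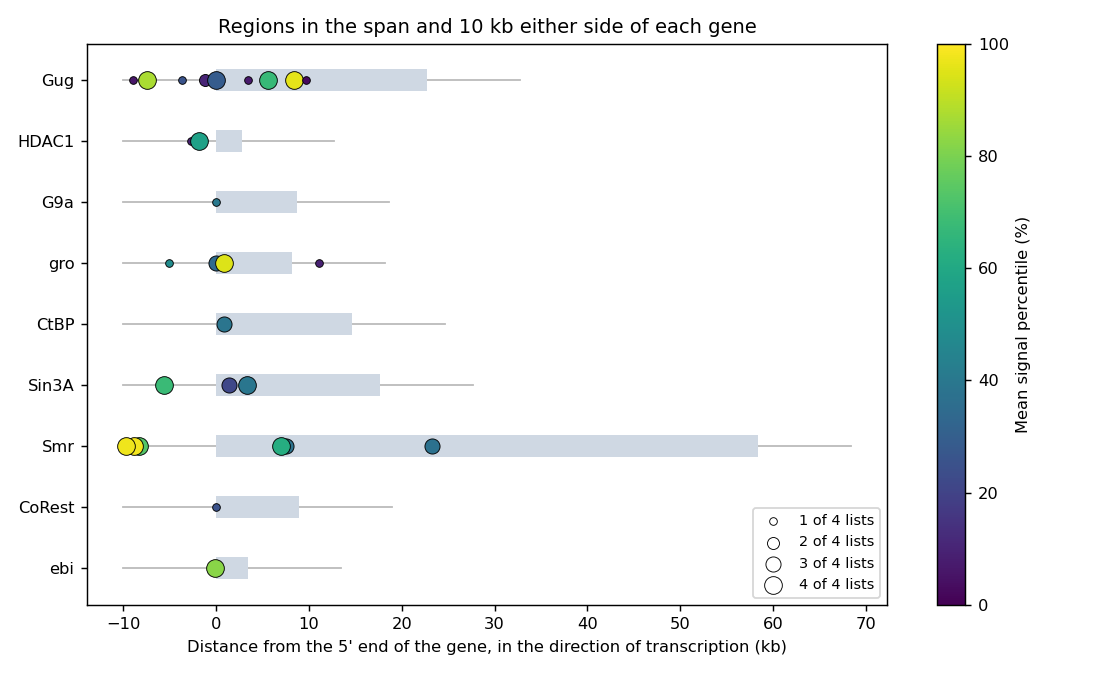
Regions in each co-repressor gene and 10 kb either side, with the position along the x axis in kb from the gene's 5' end in the direction of transcription (blue-grey bar, the gene; line, the window). Circles are regions, larger when found in more of the 4 lists and coloured by mean signal percentile; the strongest lie 8854 and 9768 bp upstream of Smr, 8.40 kb into Gug and 0.794 kb into gro.

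Gug (FBgn0010825; chr3L:8449922-8472669 in dm6, + strand, 2 TSSs) carried 5 reproducible regions, 4 of them in all 4 lists. The strongest lay in an intron, 8.40 kb from the 5' end of the gene. Its percentiles in replicates 1 to 4 were 95.2, 94.0, 95.8 and 99.1 (96.0 ± 2.17, SD, n = 4), so it was high in every list. A second intronic region, 5.62 kb into the gene, had percentiles of 65.5, 68.7, 62.0 and 72.6 (67.2 ± 4.54, SD, n = 4), which did not overlap those of the first. The promoter region, 50 bp upstream of the first TSS, was found in all 4 lists but with percentiles of 23.5, 56.2, 2.41 and 33.0 (28.8 ± 22.3, SD, n = 4). It was low in replicate 3 and near the middle of the list in replicate 2. These sequences are shown because the promoter and the strongest intronic region are its weakest and strongest regions found in all 4 lists at or in the Gug gene. They are the dm6 reference (NCBI RefSeq, + strand, 5' to 3'), 100 bases either side of the summit, the promoter stopping before the TSS. Capitals mark matches to the motifs named further on; the intronic region has 1, the TATA box (TATAAA, here on the - strand), and the promoter has none.
Gug intron, chr3L:8458219-8458419: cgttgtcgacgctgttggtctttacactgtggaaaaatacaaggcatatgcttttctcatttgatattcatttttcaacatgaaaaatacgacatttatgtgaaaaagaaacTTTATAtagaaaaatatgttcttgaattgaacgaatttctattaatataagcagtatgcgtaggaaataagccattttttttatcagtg
Gug promoter, chr3L:8449772-8449921: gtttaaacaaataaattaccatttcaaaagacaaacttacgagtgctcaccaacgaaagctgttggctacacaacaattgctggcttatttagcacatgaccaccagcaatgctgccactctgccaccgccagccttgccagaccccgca

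The other 2 reproducible regions in the Gug window lay nearer to other TSSs. One was 41 bp upstream of Unr, an RNA-binding protein of dosage compensation, and 7.50 kb upstream of Gug. Its percentiles of 76.9, 95.3, 89.8 and 87.8 (87.4 ± 7.72, SD, n = 4) were above those of the Gug promoter in every list. The other lay in an intron of CG6983, whose TSS is 545 bp from that of Gug on the opposite strand. It was found in replicate 2 at percentile 2.51 and in replicate 4 at 18.1, both low. Another 4 regions were in 1 list each, at percentiles of 6.16 and 2.61 in replicate 4 and 25.6 and 6.89 in replicate 2.

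Each replicate also has a longer ranked list, of 32752 to 49135 peaks on the arms, which extends to much weaker peaks. In these lists the Gug window was dense in peaks. It held 719 peaks per Mb ± 183 (SD, n = 4), against 313 ± 49.9 in the sequence 10 to 60 kb away on either side and 288 ± 51.0 over the arms. The ratio of window to flank was 1.85, 3.78, 2.03 and 1.89 in replicates 1 to 4 (2.38 ± 0.933, SD, n = 4), above 1 in every list. Its mean was the highest of the 9 genes, among which the means of the other 8 ranged from 0.911 for CoRest to 1.49 for G9a. Gug was not the highest in every list, since G9a stood at 1.90 in replicate 4 and at 1.74 in replicate 1. Replicate 2 gave the highest value for Gug. The strain carries an insertion that targets Gug, and its part in this density was not tested.

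**Figure D3:**
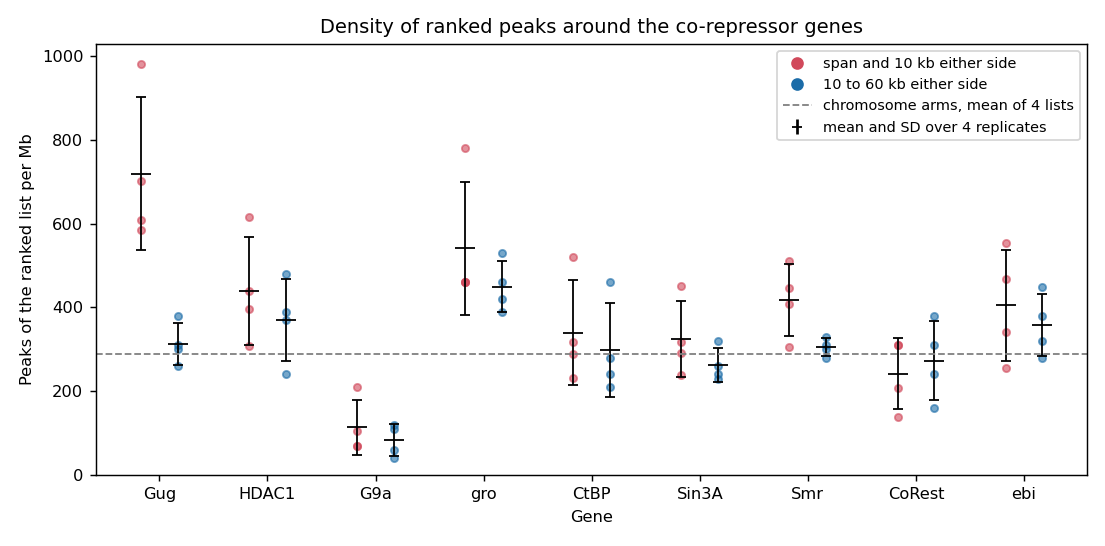
Peaks of the ranked lists per Mb for each co-repressor gene, in the gene and 10 kb either side (red) and 10 to 60 kb either side (blue); points are replicates, bars the mean and SD of 4, and the dashed line the mean over the chromosome arms. Around Gug the 4 red points lie above all 4 blue ones, with means of 719 and 313 per Mb.

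HDAC1 and Sin3A form the core of the Sin3 deacetylase complex, HDAC1 (Rpd3) as the enzyme and Sin3A as its scaffold. HDAC1 (FBgn0015805; chr3L:4626734-4629467, + strand, 1 TSS) had 1 reproducible region, 1850 bp upstream of its TSS in an intron of Src64B, a Src-family kinase gene. Its percentiles were 65.0, 70.4, 37.1 and 57.1 (57.4 ± 14.6, SD, n = 4), lowest in replicate 3. The nearest TSS to it was one of Src64B, at 1248 bp. The 5' end of Src64B lies 538 bp from that of HDAC1 on the opposite strand. No peak of the 4 replicates' thresholded lists lay within 1 kb of the HDAC1 TSS. The authors' deposited largest set, of 4488 peaks, had 1 there at percentile 8.53, which lay 22 bp downstream of a Src64B TSS. A weaker region, 2672 bp upstream, was in replicate 2 alone at percentile 8.90.

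Sin3A (FBgn0022764; chr2R:12575240-12592917, - strand, 2 TSSs) had 3 reproducible regions. The region nearest to a TSS lay in an intron, 444 bp upstream of the more downstream TSS, with percentiles of 21.3, 70.3, 7.98 and 57.1 (39.2 ± 29.4, SD, n = 4). It was in all 4 lists, but its rank ran from among the weakest peaks of replicate 3 to well above the middle in replicate 2. A second intronic region, 1381 bp from the 5'-most TSS, was absent from the list of replicate 1 and had percentiles of 20.3, 5.90 and 38.9 in replicates 2 to 4 (21.7 ± 16.6, SD, n = 3). The third lay 5576 bp upstream of Sin3A, in an intron of Amph, which encodes the membrane-bending protein Amphiphysin. It had percentiles of 74.7, 80.9, 34.4 and 80.8 (67.7 ± 22.4, SD, n = 4), high in 3 replicates and low in replicate 3.

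G9a and CoRest were the 2 genes with no reproducible region. G9a, a histone H3 lysine 9 methyltransferase (FBgn0040372; chrX:245978-254650, + strand, 1 TSS), had a peak 38 bp upstream of its TSS in replicate 2 alone, at percentile 40.5. The nearest reproducible region was 247988 bp from its TSS. CoRest, the scaffold that joins a histone demethylase to deacetylases (FBgn0261573; chrX:19521929-19530896, + strand, 4 TSSs), had a peak 53 bp upstream of a TSS, again in replicate 2 alone, at percentile 25.3. The nearest reproducible region was 25465 bp away. Replicate 2 also had the longest list, and the part of list length in these calls was not tested.

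Both genes also had peaks within 1 kb of a TSS in the longer ranked lists of the other replicates. For G9a the strongest ranked peak within 1 kb of the TSS stood at percentiles of 69.1, 93.8, 90.9 and 83.3 of the ranked lists of replicates 1 to 4. For CoRest they were 95.3, 92.1, 76.7 and 86.5. The G9a peak of replicate 1 lay 913 bp from the TSS, and the CoRest peak of replicate 3 lay 727 bp from one. In the authors' deposited conservative set of 3271 peaks, made from all 4 replicates, a G9a peak 35 bp upstream of the TSS was included at percentile 14.4, and no CoRest peak was. In the authors' deposited largest set of 4488 peaks both were included, G9a at percentile 25.9 and CoRest at 32.95, the latter 45 bp upstream of the neighbouring gene Idh3a.

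In the ranked lists the strongest peaks within 1 kb of the other genes' TSSs stood higher or lower. A ranked peak within 1 kb of a TSS was found for 9, 8, 9 and 8 of the 9 genes, while 62.1%, 60.6%, 60.6% and 55.2% of all protein-coding genes had one. The gro TSSs had the strongest, at percentiles of 99.8, 99.6, 99.7 and 99.7, followed by ebi at 99.1, 98.9, 99.3 and 98.3. The ebi peaks lay 154 to 211 bp from the ebi TSS and were nearer to that of the neighbouring gene AP-2alpha. Sin3A stood at 96.8, 96.9, 94.6 and 96.8, and Gug at 96.9, 95.5, 92.5 and 94.8. CtBP had 94.4, 96.6, 97.2 and 88.2. Gug, Sin3A and CtBP overlapped, so these lists do not order them. HDAC1 ranged widely, at 34.4, 89.8, 63.5 and 91.0. Its peaks lay 532 to 653 bp from its TSS, and the 5' end of Src64B lies 538 bp from that TSS. Smr stood at 42.2 in replicate 1 and 4.19 in replicate 3, with no ranked peak there in replicates 2 and 4.

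**Figure D4:**
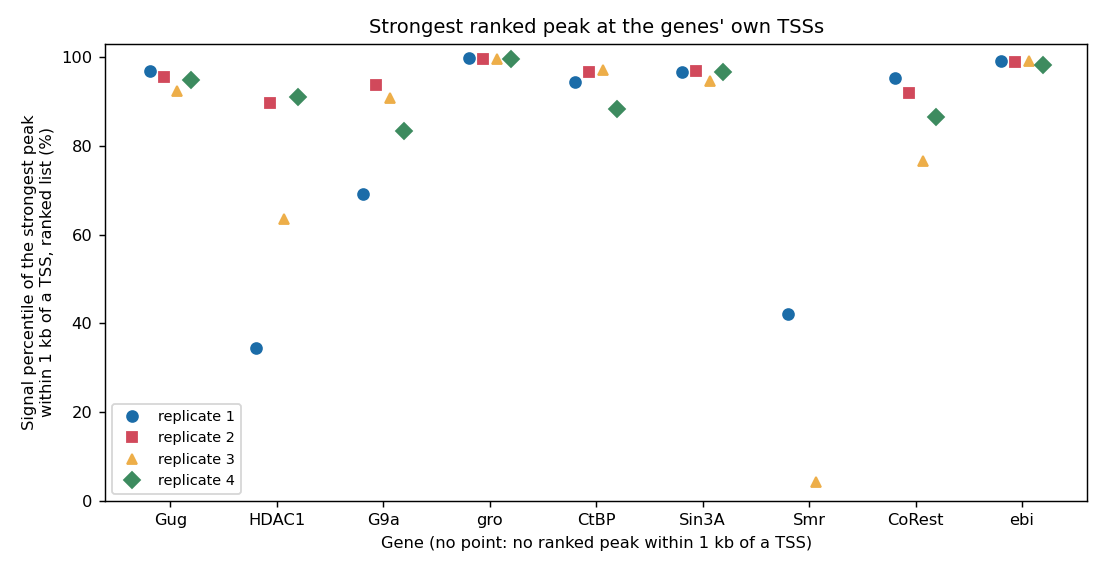
Signal percentile, in each replicate's ranked list, of the strongest peak within 1 kb of a TSS of each co-repressor gene; symbols are replicates 1 to 4 and a missing symbol means no ranked peak. The gro and ebi points all lie at 98.3 or above, and the highest Smr point is at 42.2. The ebi peaks lie nearer to the TSS of AP-2alpha than to that of ebi.

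The gene groucho, gro, encodes the co-repressor of Hairy and the Enhancer of split proteins, and CtBP a co-repressor used by short-range repressors such as Snail and Knirps. The strongest region at gro (FBgn0001139; chr3R:26041736-26049911, + strand, 4 TSSs) lay in an intron, 111 bp upstream of a downstream TSS of gro. Its percentiles were 93.9, 95.9, 93.8 and 95.8 (94.9 ± 1.14, SD, n = 4), near the top of every list. A second region, 66 bp upstream of the 5'-most TSS and 860 bp from the first, was missing from the list of replicate 1 and had percentiles of 62.1, 21.8 and 19.6 in replicates 2 to 4 (34.5 ± 23.95, SD, n = 3). The downstream start of gro was therefore above the 5'-most one in every list that held both. Each of 2 more regions in the gro window was in 1 list, 342 bp upstream of E(spl)m7-HLH, a Notch target, in replicate 4 (percentile 48.1) and 59 bp upstream of Vps2 in replicate 3 (percentile 9.12).

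CtBP (FBgn0020496; chr3R:13011649-13026275, + strand, 3 TSSs) had 1 region, in an intron 881 bp downstream of a TSS. It was absent from the list of replicate 1, and its percentiles of 67.5, 46.7 and 2.37 in replicates 2 to 4 (38.8 ± 33.3, SD, n = 3) spread from above the middle of the list to near its end. The gro and CtBP sequences are shown as the strongest and the least even of the regions within 1 kb of a TSS. They are dm6 reference, + strand, 100 bases either side of the summit. In the CtBP region capitals mark GAGAG, the core of the GAGA factor site, once on the - strand (printed CTCTC) and as overlapping copies on the + strand, and TATAAA on the - strand (printed TTTATA). The gro region holds no match to the motifs searched.
gro intron, chr3R:26042430-26042630: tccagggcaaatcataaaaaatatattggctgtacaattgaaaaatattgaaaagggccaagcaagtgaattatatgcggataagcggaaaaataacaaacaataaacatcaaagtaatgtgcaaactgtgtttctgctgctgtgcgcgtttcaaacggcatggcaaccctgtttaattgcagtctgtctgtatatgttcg
CtBP intron, chr3R:13012430-13012630: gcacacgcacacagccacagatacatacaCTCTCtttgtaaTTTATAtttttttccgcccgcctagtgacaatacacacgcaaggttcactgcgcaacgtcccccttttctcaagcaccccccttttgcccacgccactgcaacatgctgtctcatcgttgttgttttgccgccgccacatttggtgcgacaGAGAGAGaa

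Smr (SMRTER) is the fly co-repressor of the ecdysone receptor and other nuclear receptors, and ebi encodes a WD40-repeat protein that works with it. Smr (FBgn0265523; chrX:12684203-12742618, - strand, 3 TSSs) is the longest gene of the 9 and had the most reproducible regions, 6, of which 4 were in all 4 lists. None lay within 1 kb of a TSS, and the nearest was 6390 bp from one. A cluster of 3 regions lay between genes 8336, 8854 and 9768 bp upstream of Smr, separated by 518 and 914 bp. The middle one had percentiles of 97.2, 99.5, 99.1 and 96.5 (98.1 ± 1.43, SD, n = 4) and stood at ranks 55, 21, 20 and 86 of the ranked lists. The farthest had 97.6, 98.3, 96.6 and 98.0 (97.6 ± 0.700, SD, n = 4), which overlapped the middle one. The nearest of the 3 was weaker, at 64.7, 79.1, 67.6 and 81.8 (73.3 ± 8.40, SD, n = 4). All 3 were closer to the TSS of CG4004, at 4637 to 6069 bp, than to that of Smr.

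Inside Smr, 2 regions 563 bp apart lay 6.94 and 7.50 kb from the 5' end. The first was in all 4 lists at 70.2, 71.9, 39.0 and 67.1 (62.0 ± 15.5, SD, n = 4), lowest in replicate 3. It joined 2 peaks of every list, so its position lies between them and its percentile is that of the stronger. The stronger was a different peak in replicate 3 than in the other lists. The second was missing from replicate 1 and had 70.8, 38.0 and 4.29 in replicates 2 to 4 (37.7 ± 33.2, SD, n = 3). Another, 23.3 kb into the gene, had 35.9, 65.0 and 11.0 in replicates 1, 2 and 4 (37.3 ± 27.0, SD, n = 3) and was absent from the list of replicate 3. The 3 intronic regions were weaker in every list than the middle and farthest regions upstream.

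At ebi (FBgn0263933; chr2L:415067-418536, + strand, 1 TSS) there was 1 region, found in all 4 lists at 76.1, 89.1, 86.1 and 77.2 (82.1 ± 6.46, SD, n = 4). It was in the upper part of each list. It lay 154 bp upstream of the ebi TSS and 136 bp upstream of that of AP-2alpha, a clathrin adaptor subunit gene. These TSSs face away from each other 290 bp apart, so the region cannot be given to 1 of the genes. The peaks with these percentiles were nearest to AP-2alpha, 90, 79, 136 and 92 bp upstream of it in replicates 1 to 4. Peaks at the ebi TSS, joined to them in replicates 1, 2 and 4, were weak, at percentiles of 1.23, 3.78 and 1.22. The Smr and ebi sequences are shown as the upstream cluster's strongest and weakest regions and as a shared promoter (dm6 reference, + strand, 100 bases either side of the summit). Capitals mark GAGAG, which is in ebi once and in the weaker Smr region in 3 copies, 2 of them overlapping, and TATAAA, in overlapping copies on both strands of the weaker Smr region. The stronger Smr region has no match.
Smr upstream, 8854 bp, chrX:12751372-12751572: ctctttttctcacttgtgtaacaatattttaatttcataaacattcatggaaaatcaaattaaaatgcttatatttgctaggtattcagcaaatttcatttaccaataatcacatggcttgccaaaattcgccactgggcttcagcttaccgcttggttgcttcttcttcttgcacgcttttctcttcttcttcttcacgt
Smr upstream, 8336 bp, chrX:12750854-12751054: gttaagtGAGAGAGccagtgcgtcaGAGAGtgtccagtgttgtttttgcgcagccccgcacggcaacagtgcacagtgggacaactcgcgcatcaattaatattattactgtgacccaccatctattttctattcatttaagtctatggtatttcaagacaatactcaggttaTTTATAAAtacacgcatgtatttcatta
ebi and AP-2alpha promoter, chr2L:414813-415013: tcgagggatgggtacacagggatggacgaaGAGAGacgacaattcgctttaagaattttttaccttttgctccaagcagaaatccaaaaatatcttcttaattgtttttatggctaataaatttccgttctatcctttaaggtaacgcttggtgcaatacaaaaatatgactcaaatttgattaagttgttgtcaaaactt

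**Figure D5:**
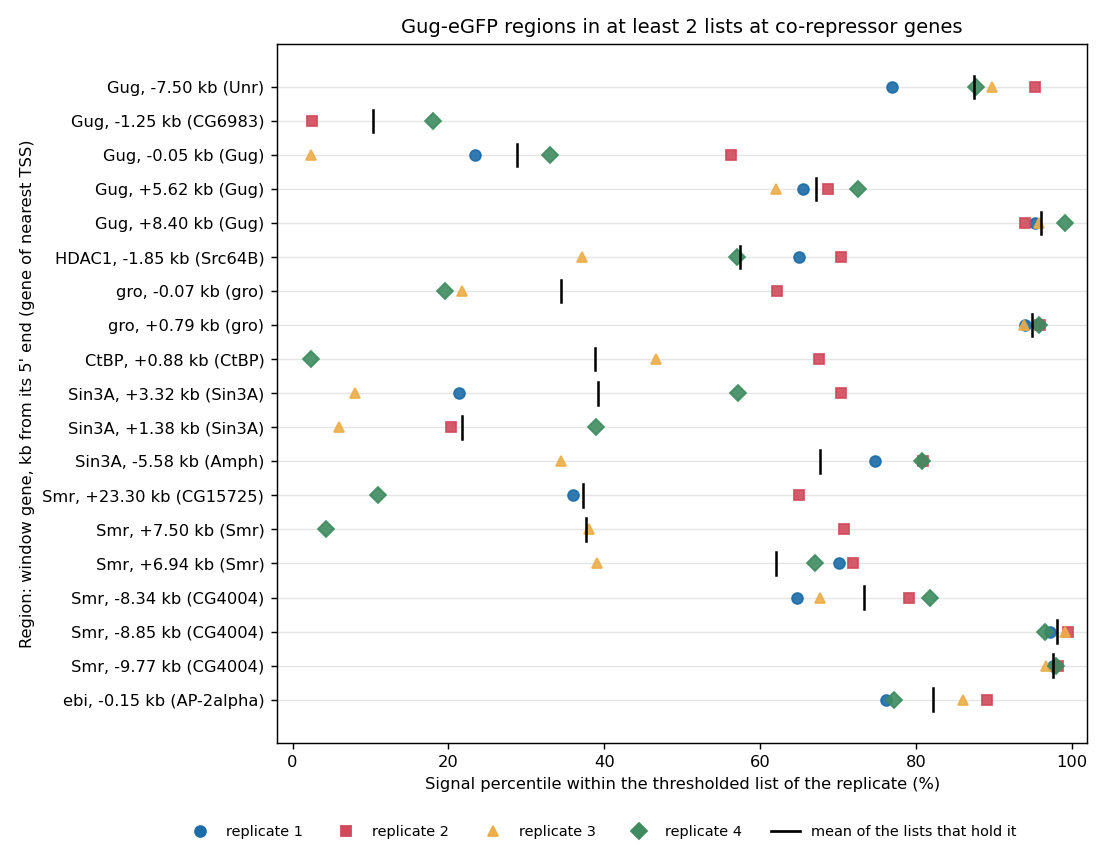
Signal percentile of each reproducible region of the co-repressor genes in the list of each replicate (symbols), with the mean of the lists that hold it (black bar); labels give the gene, the distance from its 5' end in kb and, in brackets, the gene of the nearest TSS. The 4 regions with means of at least 90 have tightly grouped points, with SDs from 0.700 to 2.17, and SDs reach 33.3 at the CtBP region.

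Strong regions varied least between lists. The SD over lists was 0.700 to 2.17 percentile points for the 4 regions with a mean of at least 90. For the 8 regions with a mean under 50 it ran from 11.0 at the CG6983 intron to 33.3 at CtBP. Percentiles end at 100, and the part of this limit in the smaller spread was not tested. Over those of the 19 regions that each list held, the median percentile was 72.4, 70.8, 46.7 and 67.1 in replicates 1 to 4, lowest in replicate 3.

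Regions were denser in these windows than along the chromosomes. The windows cover 325.5 kb and held 58.4 reproducible regions per Mb, against 19.2 over the arms, a ratio of 3.04. The SD of this ratio over the lists taken singly was 0.469. Gene windows are dense in general, since the mean over all protein-coding genes was 32.2 per Mb, against 51.1 for the 9 genes. The number of regions per window had a median of 1 and a mean of 2.11 for the 9 genes, and a median of 0 and a mean of 0.815 for all protein-coding genes. Gug and Smr had at least 5, which is 22.2% of the 9 genes and 1.00% of all protein-coding genes. Their windows, of 42.7 and 78.4 kb, are wider than those of most genes, and this share was not taken among genes of like span. The gene's own TSS was the nearest for 3 of the 5 regions at Gug and 2 of the 6 at Smr.

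The sequences around the 19 summits were searched on both strands, 100 bases either side, for 10 short motifs. GAGAG was in 8 of the 19 (42.1%) and in 25.0% of all 2643 reproducible regions. The 8 were the Unr promoter region in the Gug window, the CtBP and ebi regions, 3 regions of Smr and 2 of Sin3A. TATAAA was in 6 (31.6%), against 31.9%, and the homeodomain core TAATTA in 2 (10.5%), against 14.3%. The nuclear receptor core AGGTCA was in 1, the CG6983 intron (5.26%, against 3.63%), and the Brinker site TGGCGCC in 1, at Unr (5.26%, against 2.99%). No match was found to the DREF site TATCGATA (4.05% of all regions), the Tailless core AAGTCA (9.69%), the Zelda site CAGGTAG (0.870%), the Suppressor of Hairless site GTGGGAA (2.35%) or the E-box CACGTG (2.38%). These counts change with the width searched. With 200 bases either side GAGAG was in 10 of the 19 (52.6%, against 47.1%) and AAGTCA in 3 (15.8%, against 17.4%), and with 50 bases GAGAG was in 3 (15.8%, against 10.3%). Copies of GAGAG can overlap one another and are counted once per region. Mean GC content was 37.4% ± 6.75 (SD over 19 regions), against 38.2% ± 6.40 over all regions.

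Genes for other co-repressor complex subunits, deacetylases, H3K9 methylation factors and adaptors were set beside the 9. Of 28 partner genes, 21 (75.0%) had a reproducible region in the gene or within 10 kb and 8 (28.6%) had one within 1 kb of a TSS, where all protein-coding genes gave 49.4% and 15.9%. Among genes with at least 2 TSSs the shares were 60.9% and 26.8%, the latter near that of the partner genes. No background matched to the partner genes in span or number of TSSs was taken. Within 10 kb the genes numbered 5 of 6 for the Sin3 and HDAC1 complexes, 4 of 5 for NuRD, 5 of 6 other deacetylases, 3 of 5 for LSD1 and H3K9 methylation and 4 of 6 adaptors. Within 1 kb of a TSS the numbers were 1, 2, 3, 1 and 1. The group of adaptors was counted with Hmt4-20, an enzyme, which was its 1 gene with a TSS region. The strongest of the TSS regions was that of Hmt4-20, a histone H4 methyltransferase (188 bp from its TSS, mean percentile 88.3 ± 8.40, SD, n = 4). Next came wde, the partner of the methyltransferase Egg (538 bp, 73.9 ± 11.2, SD, n = 4), and MTA1-like of NuRD (79 bp, in 2 lists, 61.7 ± 9.37, SD, n = 2). The deacetylases Sirt1, HDAC3 and Sirt2 followed at means of 50.4 ± 6.13 (n = 3), 42.6 ± 42.8 (n = 2) and 38.0 ± 31.7 (n = 3). The most regions were at simj of NuRD, with 5, then at wde, MBD-like and bon, with 3 each. The TSS regions of Sirt1, Sirt2, MBD-like and Pf1 were nearest to a TSS of another gene (DnaJ-H, CG4360, AP-1mu and CG15891). That of HDAC3 was equally near to CG45100. Counting only regions whose nearest TSS was the gene's own left 4 of the 28, against 11.0% of all protein-coding genes.

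Genes of DNA-binding repressors that act through these co-repressors were counted the same way. Of 16, 6 (37.5%) had a reproducible region in the gene or within 10 kb and 2 (12.5%) had one within 1 kb of a TSS, where all protein-coding genes gave 49.4% and 15.9%. The 2 were brk, the Dpp-pathway repressor (889 bp from its TSS, mean percentile 60.2 ± 11.1, SD, n = 4), and usp, the ecdysone receptor's partner (201 bp, 50.8 ± 35.3, SD, n = 3). Both had 3 regions in all, EcR had 2, and eve, dl and dpn had 1 each. No reproducible region lay within 10 kb of tll, the nuclear receptor gene best known for work with Atrophin, or of svp, hkb, Kr, kni, sna, h, en, run and Su(H).

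Other genes came close to Gug and Smr in region number and strength. Likeness was the Euclidean distance, over the 4 lists, between the highest percentiles in the windows, among genes that had the same number of reproducible regions and shared none with it. For Gug, with highest percentiles of 95.2, 95.3, 95.8 and 99.1 and 75 such genes, the nearest were CG18128, CG46429 and Sesn, each 3.29 percentile points away with the same values in every list. Identical values in all 4 lists point to strongest peaks that their windows share, so these 3 genes are not separate cases. For Smr, with 97.6, 99.5, 99.1 and 98.0 and 43 such genes, they were Tlk at 2.04, CG34126 at 2.16 and TBPH at 2.43.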

How the data were processed

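ChIP-seq peak lists of 4 biological replicates of Gug-eGFP embryos were used, on the dm6 build per the labels. Per the README texts deposited with the samples, peaks were called per replicate, from its own alignment and further inputs whose role is not stated. Which aligner and peak caller were used is not given in the sources used here. Every deposited peak has the authors' signal score, which was used only to rank peaks within a list, and a −log10 q-value. The files give no read counts, so depth is unknown and no interval that needs it is given. Values of the authors' deposited series-level sets come from lists made with all 4 replicates.

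Peaks on the chromosome arms were kept, all within the lengths of the dm6 reference. Summits within 200 bp were joined, a region in at least 2 lists was called reproducible, and its position is the median summit (1-based). Genes and TSSs came from Ensembl release 115, and 4 list symbols were matched through an older name (Pf1 as CG3815, lid as Kdm5, Mrg15 as MRG15, h as hry). A gene's window is its span and 10 kb either side, and a TSS window 1 kb. Means and SDs run over the lists that hold a region.

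The genes, the lists and the rule for named genes were chosen with earlier results of these data known, and nothing was tested. By that rule every region of the 9 genes is named, with the up to 6 genes of each list that had the strongest TSS regions and the up to 6 with the most regions, and the 3 genes most like Gug and Smr. Partner genes that tied for the last places, with 2 regions each, were not named under the latter. Alternatives covered leaving out each replicate, requiring other numbers of lists, the authors' sets, stronger or equally long lists, other joining distances and windows, motif searches 50 or 200 bases either side, percentiles from the ranked lists, and the background. Lists restricted to a −log10 q of at least 1, and backgrounds of genes of like span or with at least 2 TSSs, were added after seeing the data. The joining of summits and the calls in the 10 kb and TSS windows were tested on simulated data, and the other steps were not. Python 3.11.15, numpy 2.4.6, pandas 2.3.3 and matplotlib 3.10.9 were used.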

Additional observations from a re-analysis of the deposited data

Results flagged for a closer look

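In 13 regions found in all 4 lists the lowest and highest percentiles were set against Dixon's criterion, by which chance picks about 1 group in 20. In 2 regions 1 replicate stood apart from the other 3, and in both it was replicate 3, on the low side. The region 5576 bp upstream of Sin3A, in an intron of Amph, had a percentile of 34.4 in replicate 3 and between 74.7 and 80.9 in the others. The Smr intronic region 6.94 kb into the gene had a percentile of 39.0 in replicate 3 and between 67.1 and 71.9 in the others. It joined 2 peaks of every list, and the value of replicate 3 came from a different peak than the others. In replicates 1 to 4, the peak farther from the 5' end had percentiles of 70.2, 71.9, 2.13 and 67.1. The nearer peak had 52.4, 68.0, 39.0 and 59.5. Dixon's criterion was not applied to each peak by itself.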

How the results depend on the processing

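With any 1 replicate left out, the same 7 genes kept a reproducible region within 10 kb (range 7 to 7) and the same 5 within 1 kb of a TSS (5 to 5). Leaving out 1 replicate gave 18 to 20 regions in the windows and a density ratio of 3.53 to 3.86. It gave 18 to 20 and 6 to 8 partner genes (10 kb, TSS), 5 to 6 and 2 to 2 repressor genes, and 40.6 to 47.3% and 11.9 to 15.3% of all protein-coding genes. Of the values of these counts and shares under an alternative, 131 stayed within 1.5 times, or for the density ratio within 1 SD, of the reported value and 35 did not. With the stronger 50% of each list, 3 of the 9 genes had a TSS region (gro, Sin3A and ebi), the windows held 12 regions, the density ratio was 3.66, the partner counts were 13 and 4 and the repressor count within 10 kb 3, and the shares of all genes were 32.5% and 9.36%. With 4 lists required the ratio was 4.69, the partner counts 12 and 2, the repressor counts 3 and 1, and the shares 28.5% and 7.84%. With 3 lists the ratio was 4.25 and the partner TSS count 5, where the share of all genes at a TSS was 11.5%. With 1 list the repressor TSS count was 5 and the share of all genes at a TSS 24.0%. In the authors' deposited largest set 8 of the 9 genes and 22.9% of all protein-coding genes had a TSS peak. The windows held 34 peaks there and the repressor TSS count was 4. With the gene span alone the windows held 9 regions, the partner count was 5, the repressor count 2 and the share of all genes 7.94%. A window of 20 kb held 29 regions, and one of 5 kb left 3 repressor genes and 35.9% of all genes. A TSS window of 500 bp left 1 repressor gene and 13.5% of all genes. The nearest TSS alone left 4 partner genes and 11.0% of all genes, and among genes with at least 2 TSSs the TSS share was 26.8%. Of the mean percentiles of single regions under an alternative, 92 moved by less than 1 SD and 21 by more. Leaving out 1 replicate cannot move such a mean by 1 SD, so those values could only fall among the 92. Percentiles from the ranked lists all moved, since those lists extend to much weaker peaks. Neither kind of value bears on how stable a region is, and only the equally long lists could have gone either way. Of the motif counts at other widths 13 stayed within 1.5 times and 7 did not. The causes of the other changes were not tested. No paired analysis was possible because there is 1 group and no comparison between groups. The files hold no read counts, so weak peaks cannot be weighed by depth.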
